A study of Danio rerio with 6 samples.

Results

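Cathepsins are the proteases of the lysosome, the acidic compartment in which a cell breaks down proteins taken up from outside or delivered from its own cytoplasm. Most are cysteine proteases of the papain family, while cathepsin D is an aspartic protease and cathepsin A a serine carboxypeptidase. They are made as inactive precursors, tagged with mannose 6-phosphate, carried to the lysosome by sorting receptors and cut to the active form there, and cystatins inhibit the cysteine members. In tumours, cathepsins are also released by cancer cells and by macrophages and can cut the surrounding matrix. The roles given below for single genes are known mainly from mammals.

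The 10 cathepsin genes described here, ctsba, ctssb.1, ctsla, ctsk, ctsc, ctsh, ctsf, ctsz, ctsd and ctsa, were taken by symbol from a table of 14781 gene symbols, and all 10 were present and passed the low-count filter. They were measured in 6 RNA libraries of neuroblastomas of zebrafish, which arise in the sympathetic part of the peripheral nervous system. There were 3 libraries of tumours from fish overexpressing MYCN with gas7 knocked out (KO) and 3 of tumours from fish overexpressing MYCN alone (MYCN-alone), so MYCN overexpression was common to all. The question of the series was how loss of gas7, which encodes an F-BAR protein of membranes and the actin cytoskeleton, affects MYCN-driven neuroblastoma and its spread. The sources used here do not give the promoter of the transgene, the mutation, the ages of the fish, or whether each library was a separate fish, so the spread between libraries may be in part technical.

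Total counts ran from 12054844 to 33305326 per library. The sympathetic markers th, dbh and phox2a were read in every library. The gene th had 2558 to 4868 CPM (a count scaled by the TMM-adjusted total of its library) in KO and 1664 to 3784 CPM in MYCN-alone libraries. For dbh the ranges were 1402 to 5152 CPM in KO and 2258 to 3135 CPM in MYCN-alone libraries. For phox2a they were lower in KO, at 129.2 to 193.5 CPM against 239.5 to 507.4 CPM. Of 21 tested sympathetic genes 7 had a positive and 14 a negative log2 fold change, KO over MYCN-alone. The gene gas7a was read at 14.9, 13.9 and 10.03 CPM in KO libraries 1, 2 and 3 and at 23.0, 9.69 and 32.7 CPM in MYCN-alone libraries 1, 2 and 3, so the genotypes overlapped at this gene. KO libraries 2 and 3 stood apart by egg and ovary transcripts. Summed over the 28 ovary and oocyte genes in the table, these libraries had 7965 and 10330 CPM, against 114.6 CPM in KO library 1 and 94.04 to 149.2 CPM in the MYCN-alone libraries. A large part of the low sums was rbpms2b, at 51.8 CPM in KO library 1 and 39.8 to 66.5 CPM in MYCN-alone libraries. Gene by gene, KO library 1 was above the MYCN-alone libraries in some genes and below them in others. It had 5.14 CPM of zp3 against 0.711 CPM at most, and 8.72 CPM of gdf3 against 15.9 CPM at least. In 11 of 22 tested genes of the list all KO libraries lay above all MYCN-alone libraries, and in 11.6% of all tested genes. Genes near 0 in the MYCN-alone libraries passed the low-count filter only with reads in KO library 1. Nothing is therefore read from this count. Since KO libraries 2 and 3 stood apart, the fold change of each of the 10 cathepsins is also given without KO library 1. Other values are given without KO library 1 or without KO libraries 2 and 3 where they shift. In fits with KO library 1 as the only KO library, the standard error (SE) holds no spread between KO libraries. Such an SE can be too small and is not to be compared with that from all 6 libraries.

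Of these genes, ctsba and ctssb.1 had drawn attention in an earlier look at the same genotype contrast, and the family was chosen with that contrast known. The KO against MYCN-alone values of the members are therefore a description and carry no test. In edgeR's quasi-likelihood fit over all 12821 tested genes, 0% of genes passed an adjusted p under 0.05, and so none of the 10 cathepsins did. Without regard to a threshold, 9 of the 10 had a positive log2 fold change, where 52.4% of all tested genes did. The median log2 fold change was 1.33 for the 10 cathepsins and 0.04 for all genes tested. Without KO library 1 the log2 fold change was positive in 7 of the 10, with a median of 0.59, and in 47% of all genes tested, with a median of -0.06. With KO library 1 as the only KO library it was positive in all 10, with a median of 2.09. In 4 cathepsins (ctsba, ctssb.1, ctsla and ctsa) every KO library lay above every MYCN-alone library, and 11.6% of all tested genes lay that way. At an unadjusted p under 0.05 edgeR gave 5 cathepsins, all higher in KO, and 11.5% of all tested genes in that direction. Since the family was chosen on this contrast, nothing is read from these shares. With other tests or fewer libraries some cathepsins passed at an adjusted p under 0.05. DESeq2 called ctsba, ctssb.1 and ctsa as higher, a direction in which it called 6.34% of genes, and limma-voom called ctsba, the 1 gene it called (0.0078%). In edgeR without KO library 1, the same 3 were called as higher and ctsf as lower, where 11.2% and 3.51% of genes were called in these directions. These calls come from the contrast on which the family was chosen, so nothing is read from them either.

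**Figure D1:**
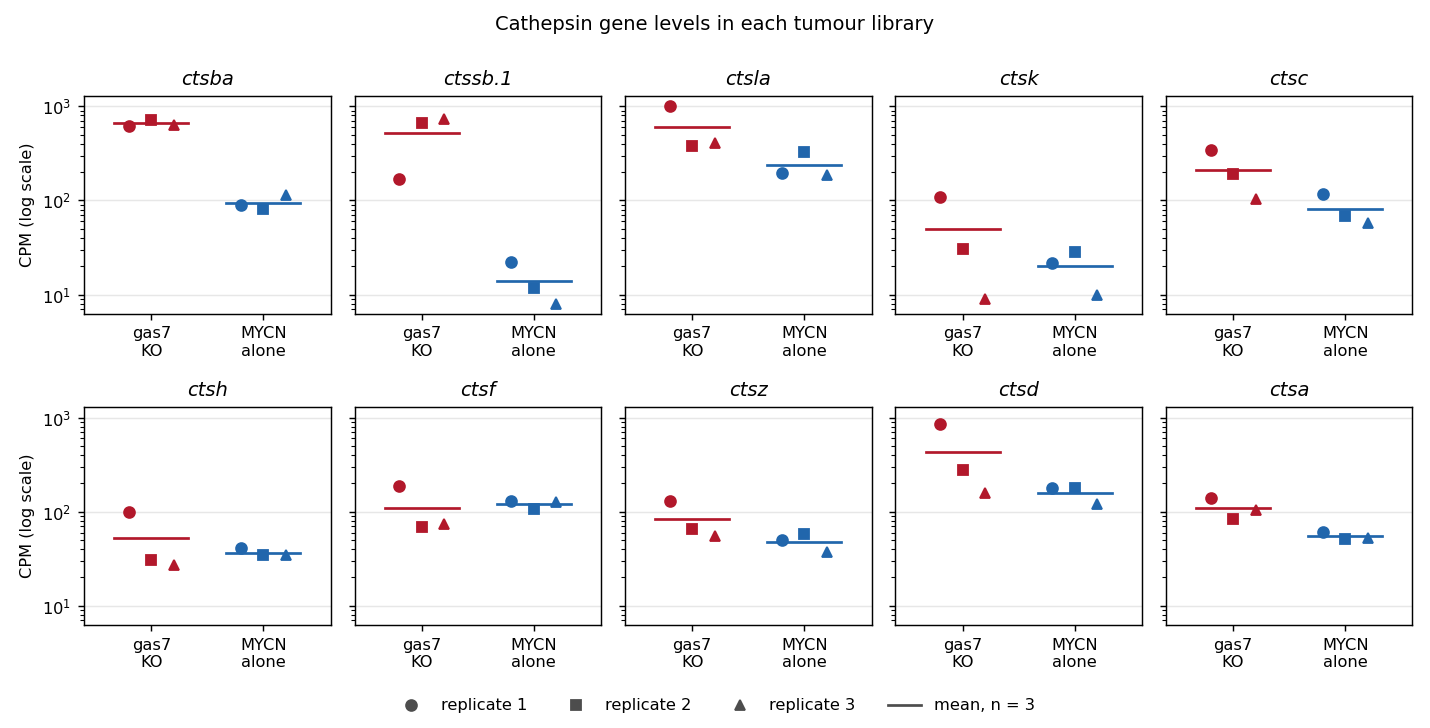
Level of each cathepsin gene in the 3 KO libraries (red, left) and the 3 MYCN-alone libraries (blue, right), as CPM on a log scale; marker shapes give the replicate number and lines the mean of 3 libraries. The KO libraries of ctsba lie close together between 616 and 722 CPM, while those of ctsd, ctsk and ctsh are spread, with replicate 1 on top.

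Cathepsin B, a cysteine protease that cuts within proteins and also removes dipeptides from their ends, had the evenest difference of the family. The gene ctsba was read at 616, 722 and 637 CPM in KO libraries 1, 2 and 3, and at 89.2, 82.0 and 114 CPM in MYCN-alone libraries 1, 2 and 3. Its lowest KO library was thus far above its highest MYCN-alone library. The means were 658 ± 56.0 CPM in KO and 94.9 ± 16.5 CPM in MYCN-alone tumours (SD, n = 3), a 6.93-fold ratio and a fitted log2 fold change of 2.79 (SE 0.24). Its coefficient of variation was 8.51% among the KO and 17.4% among the MYCN-alone libraries, where the median over all tested genes was 36% and 22%. Against the mean of the MYCN-alone libraries, each KO library was raised by a similar log2 difference, 2.71, 2.94 and 2.76 in libraries 1, 2 and 3. The fold change was 2.84 (SE 0.21) without KO library 1 and 2.70 (SE 0.27) without KO libraries 2 and 3, so it was of similar size in both parts of the KO group.

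Cathepsin S, a cysteine protease known for cutting the invariant chain during antigen presentation and for working near neutral pH, showed the widest ratio. The gene ctssb.1, named ctss2.1 in RefSeq, was read at 170, 669 and 737 CPM in KO libraries 1, 2 and 3, and 22.1, 11.7 and 7.96 CPM in MYCN-alone libraries 1, 2 and 3. The groups did not overlap, but KO libraries 2 and 3, which carry the egg transcripts, were well above KO library 1. The means were 525 ± 310 CPM in KO and 13.9 ± 7.29 CPM in MYCN-alone tumours (SD, n = 3), a 37.7-fold ratio and a log2 fold change of 5.24 (SE 0.74). With KO libraries 2 and 3 left out it was 3.62 (SE 0.55), and with KO library 1 left out 5.66 (SE 0.47). Whether the ovarian transcripts of libraries 2 and 3 have a part in the height of ctssb.1 was not tested.

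The chromosomal neighbours of ctssb.1 did not share its profile. In the RefSeq annotation ctsk, ctssb.1 and its near copy ctssb.2 are consecutive protein-coding genes. The copy ctssb.2 was read at 126, 100.3 and 12.9 CPM in KO libraries 1, 2 and 3, against 32.6, 38.3 and 14.5 CPM in MYCN-alone libraries 1, 2 and 3. It was thus lowest of all in KO library 3, the library in which ctssb.1 was highest. The 2 copies could have shared reads in the authors' counting, so their sum was also taken. Summed, they had 296, 769 and 750 CPM in KO libraries 1, 2 and 3 and 54.7, 50.0 and 22.5 CPM in the MYCN-alone libraries, and the log2 fold change was 3.83 (SE 0.54).

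Cathepsin K, the collagen-degrading protease of mammalian osteoclasts, had the least stable levels. The gene ctsk was read at 110, 30.6 and 8.89 CPM in KO libraries 1, 2 and 3, and 21.5, 28.3 and 9.98 CPM in MYCN-alone libraries 1, 2 and 3. KO library 1 was the highest of all 6 and KO library 3 the lowest. The coefficient of variation among the KO libraries was 107%, the largest of the 10 cathepsins, and the log2 fold change was 1.32 (SE 0.88). Without KO library 1 it was -0.01 (SE 0.64), and with KO library 1 as the only KO library 2.48 (SE 0.54).

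Cathepsin L, a broad cysteine endopeptidase that also cuts other cathepsin precursors, was read from the gene ctsla at 1019, 383 and 407 CPM in KO libraries 1, 2 and 3, and 196, 328 and 188 CPM in MYCN-alone libraries 1, 2 and 3. The groups did not overlap, though KO library 2 and MYCN-alone library 2 were close. The log2 fold change was 1.35 (SE 0.47), 0.73 (SE 0.28) without KO library 1 and 2.12 (SE 0.36) with it as the only KO library.

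The genes ctsc and ctsz were highest in KO library 1. Cathepsin C removes dipeptides and activates the granule proteases of leukocytes. Its gene ctsc was read at 340, 192 and 104 CPM in KO libraries 1, 2 and 3, against 118, 68.1 and 57.9 CPM in MYCN-alone libraries 1, 2 and 3. KO library 3 lay below MYCN-alone library 1, so the groups overlapped, and the log2 fold change was 1.38 (SE 0.50), 0.86 (SE 0.40) without KO library 1 and 2.07 (SE 0.44) with it as the only KO library. Cathepsin Z is a carboxypeptidase, and its gene ctsz was read at 130, 65.4 and 54.8 CPM in KO and 49.6, 58.0 and 36.9 CPM in MYCN-alone libraries 1, 2 and 3. Here too the groups overlapped, with a log2 fold change of 0.79 (SE 0.39), 0.32 (SE 0.25) without KO library 1 and 1.44 (SE 0.30) with it as the only KO library.

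Cathepsin H, an aminopeptidase, and cathepsin F, a further cysteine protease, differed in direction between KO libraries. The gene ctsh was read at 99.4, 30.4 and 27.1 CPM in KO libraries 1, 2 and 3, and 41.5, 34.4 and 34.2 CPM in MYCN-alone libraries 1, 2 and 3. The gene ctsf was read at 187, 68.9 and 74.0 CPM in KO and at 130, 107 and 127 CPM in MYCN-alone libraries 1, 2 and 3. For both genes KO library 1 was above all MYCN-alone libraries and KO libraries 2 and 3 were below all of them. The log2 fold changes over all 6 libraries were 0.51 (SE 0.53) for ctsh and -0.14 (SE 0.42) for ctsf. Without KO library 1 they were -0.35 (SE 0.21) and -0.76 (SE 0.18), and with KO library 1 as the only KO library 1.45 (SE 0.24) and 0.63 (SE 0.25).

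Cathepsin D, the main aspartic protease of the lysosome, is also known for cleaving the yolk precursor vitellogenin in fish oocytes. The gene ctsd was read at 857, 278 and 157 CPM in KO libraries 1, 2 and 3, and 179, 178 and 121 CPM in MYCN-alone libraries 1, 2 and 3. It was highest in KO library 1, and KO library 3 lay inside the MYCN-alone range. Whether oocytes have a part in the level of ctsd in any library was not tested. Its log2 fold change was 1.44 (SE 0.63), 0.45 (SE 0.31) without KO library 1 and 2.44 (SE 0.29) with it as the only KO library. Cathepsin A is a serine carboxypeptidase that also shields lysosomal beta-galactosidase and neuraminidase from breakdown. Its gene ctsa had 140, 83.5 and 104 CPM in KO libraries 1, 2 and 3, and 61.2, 50.8 and 52.7 CPM in the MYCN-alone libraries. The groups did not overlap, and after ctsba it had the smallest spread among KO libraries (coefficient of variation 26.1%). Its means were 109 ± 28.5 CPM in KO and 54.9 ± 5.57 CPM in MYCN-alone tumours (SD, n = 3), with a fitted log2 fold change of 0.99 (SE 0.26), and 0.77 (SE 0.19) without KO library 1. The genes of the enzymes it shields overlapped between genotypes, with glb1 at 26.6 ± 14.1 and 23.05 ± 2.39 CPM and neu1 at 30.1 ± 14.1 and 26.5 ± 3.21 CPM in KO and MYCN-alone tumours (SD, n = 3 each).

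**Figure D2:**
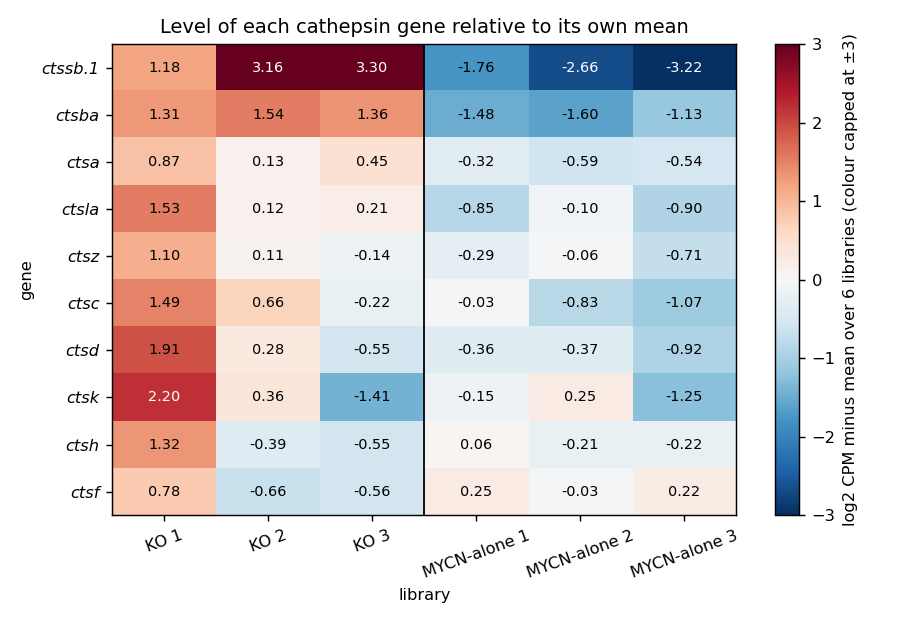
Log2 CPM of each cathepsin gene minus its mean over the 6 libraries, with the KO libraries left of the line and the MYCN-alone libraries right of it. The gene ctsba is similar in all KO libraries, ctssb.1 is highest in KO libraries 2 and 3, and the other 8 genes are highest in KO library 1.

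The 10 genes therefore did not share 1 course over the libraries. In 8 of them (ctsa, ctsc, ctsd, ctsf, ctsh, ctsk, ctsla and ctsz) the highest of the 6 libraries was KO library 1, which was the highest library for 22.4% of all tested genes. Both KO libraries 2 and 3 lay above the other 4 libraries in ctsba and ctssb.1, and in 22.3% of all tested genes. Likeness was measured as the root mean square difference of mean-centred log2 CPM over the 6 libraries, where 0 means the same course. The closest pair was ctsf and ctsh (0.323), followed by ctsla and ctsz (0.332), ctsa and ctsz (0.345) and ctsc and ctsd (0.357). The gene ctsba was nearest to ctsa (0.976), and ctssb.1 was farthest from ctsf (2.96). Genes with the same highest library could also differ in course, as ctsa and ctsk did (1.041).

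The make-up of the family's reads is a description too, since it comes from the same contrast on which the family was chosen. Of all reads counted on the 10 genes, ctssb.1 held 21.0% ± 14.4 in KO and 1.58% ± 0.742 in MYCN-alone libraries (SD, n = 3), and ctsba held 24.3% ± 6.54 and 11.2% ± 3.46. The share of ctssb.1 was 4.63% in KO library 1, against 26.5% and 31.9% in KO libraries 2 and 3. The share of ctsba was 16.8%, 28.6% and 27.6% in KO libraries 1, 2 and 3, and KO library 1 was thus close to the 15.2% of MYCN-alone library 3. Reads of ctsf made up 3.68% ± 1.25 in KO and 14.2% ± 2.82 in MYCN-alone libraries. These are shares of reads and not of molecules, since the genes differ in length. Summed over the 10 genes, KO libraries 1, 2 and 3 had 3668, 2523 and 2310 CPM, against 908, 946 and 749 CPM in MYCN-alone libraries 1, 2 and 3. With ctsba and ctssb.1 left out of the sum, the values were 2882, 1132 and 937 CPM in KO and 797, 852 and 628 CPM in MYCN-alone libraries. Every KO library was above every MYCN-alone library in both sums. Without those genes KO library 3 came near the highest MYCN-alone library (937 against 852 CPM), and KO library 2 stayed further above it, at 1132 CPM.

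**Figure D3:**
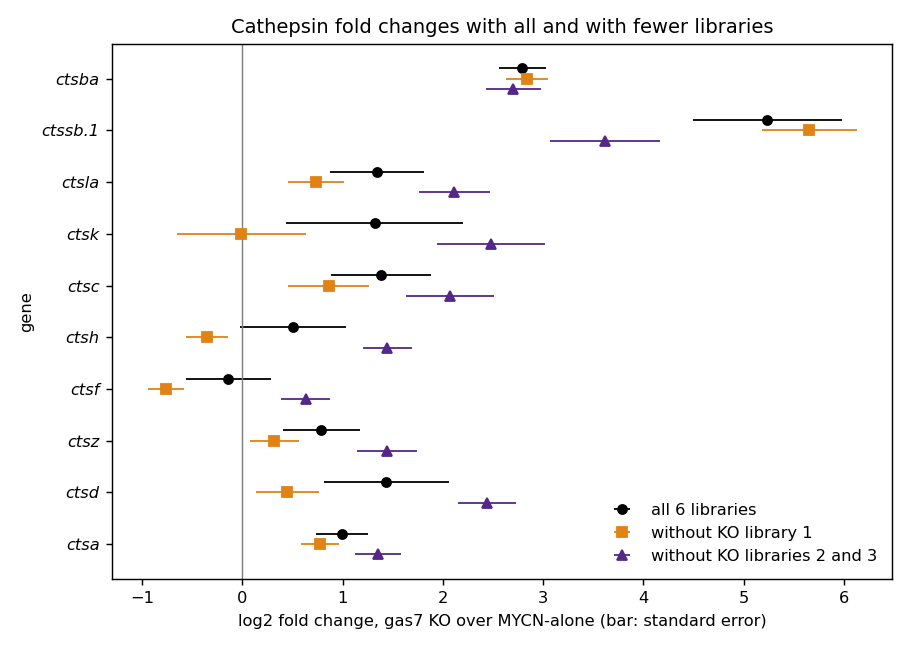
Fitted log2 fold change, KO over MYCN-alone, of each cathepsin gene with its standard error, from all 6 libraries, without KO library 1 and without KO libraries 2 and 3. The gene ctsba stays between 2.70 and 2.84, while ctsh and ctsf lie on either side of 0. Without KO libraries 2 and 3 the standard error holds no spread between KO libraries and can be too small.

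Other cathepsin genes of the table gave no common direction, and apart from ctssb.2, described above, they were low. Of 7 such symbols 4 passed the low-count filter, ctssb.2 among them. The median log2 fold change of these was -0.06, 0.23 without KO library 1 and -0.53 with it as the only KO library. The second cathepsin B gene ctsbb was at 1.88 ± 1.32 CPM in KO and 2.23 ± 0.948 CPM in MYCN-alone tumours (SD, n = 3), and its groups overlapped. It was lowest in KO library 1, at 0.363 CPM. A cathepsin L relative, ctsl.1, was read at 11.8, 1.2 and 0.423 CPM in KO libraries 1, 2 and 3, and 6.31, 1.24 and 4.67 CPM in MYCN-alone libraries 1, 2 and 3. The cathepsin S gene ctssa was at 1.28 ± 0.945 CPM in KO and 1.55 ± 0.63 CPM in MYCN-alone tumours (SD, n = 3), and it too was lowest in KO library 1, at 0.208 CPM. The genes ctslb and nots were listed at 0 in all libraries, and ctsll had at most 0.533 CPM.

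Among genes that process cathepsins and carry them to the lysosome, 21 of 24 measured members had a positive log2 fold change, with a median of 0.36 and 0.04 for all genes tested. Without KO library 1 it was positive in 17 of 24, with a median of 0.18, and with KO library 1 as the only KO library in 21, with a median of 0.68. Over all 6 libraries none passed in edgeR at an adjusted p under 0.05. At an unadjusted p under 0.05 that fit gave 3 members, all of them higher, a share close to the 11.5% of all tested genes. DESeq2 called 2 members higher, where it called 6.34% of genes higher. Without KO library 1 edgeR called 1 higher and 1 lower, where 11.2% and 3.51% of genes were called in these directions. The lysosomal peptidase gene tpp1 was at 120 ± 40.5 CPM in KO and 51.1 ± 12.8 CPM in MYCN-alone tumours (SD, n = 3; log2 fold change 1.23 with adjusted p = 0.186 in edgeR). The retromer gene vps26a, whose product returns sorting receptors to the Golgi, was at 70.3 ± 5.39 and 43.4 ± 1.63 CPM (log2 fold change 0.70 with adjusted p = 0.187 in edgeR). The gene psap, which encodes the precursor of the saposins, was at 1035 ± 441 and 571 ± 84.5 CPM (log2 fold change 0.86 with adjusted p = 0.24 in edgeR). In each of these 3 genes all KO libraries lay above all MYCN-alone libraries. This held for 6 of the 24 members and for 11.6% of all tested genes. Legumain, which cuts several cathepsins into their mature chains, had a course like that of ctsd. Its gene lgmn was read at 1414, 573 and 235 CPM in KO libraries 1, 2 and 3, and 348, 309 and 266 CPM in MYCN-alone libraries 1, 2 and 3 (edgeR adjusted p = 0.31).

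The sorting receptor genes overlapped between genotypes. The mannose 6-phosphate receptor gene m6pr was at 65.5 ± 20.4 CPM in KO and 51.4 ± 14.1 CPM in MYCN-alone tumours (SD, n = 3), and igf2r at 279 ± 45.0 and 247 ± 24.5 CPM. The enzyme gene gnptab, which adds the mannose 6-phosphate tag, was at 94.98 ± 22.8 and 95.8 ± 19.97 CPM, with a log2 fold change of -0.01 (SE 0.28). These 3 genes were chosen for their role after their values had been seen, and in each the difference was within the spread between libraries.

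Inhibitors of cathepsins and related proteases had no common direction. Of 11 measured members, 4 had a positive and 7 a negative log2 fold change. Over all 6 libraries none passed in edgeR (adjusted p of 0.174 or more). In that fit 1 member was higher and 2 lower with an unadjusted p under 0.05, where 11.5% of all tested genes were higher and 7.57% lower. DESeq2 called 2 members lower at an adjusted p under 0.05, where it called 516 of the 12722 genes with an adjusted p lower. Without KO library 1 edgeR called 2 lower, where 3.51% of genes were called lower. The list median was -0.22, and it was -0.92 without KO library 1 and 0.08 with it as the only KO library. The gene serpinb1, whose mammalian counterpart inhibits neutrophil serine proteases, was at 12.6 ± 0.432 CPM in KO and 38.4 ± 15.2 CPM in MYCN-alone tumours (SD, n = 3; log2 fold change -1.60, SE 0.33), and all KO libraries lay below all MYCN-alone libraries. A cystatin gene, cst14a.2, listed under the symbol zgc:56530, was at 33.6 ± 11.4 and 15.7 ± 2.61 CPM (log2 fold change 1.098, SE 0.34). Cystatin C, the main secreted inhibitor of cysteine cathepsins, is encoded by cst3, which was chosen after its values were seen. It had 430, 35.5 and 68.8 CPM in KO libraries 1, 2 and 3 and 231, 115 and 518 CPM in the MYCN-alone libraries, and the groups overlapped widely. The remaining genes that the rule for named genes gives here, serpinb1l4 and ahsg2 (listed as si:ch73-252g14.4), were lower on average in KO, at 0.895 ± 1.12 and 7.27 ± 7.1 CPM for serpinb1l4 and at 13.5 ± 17.2 and 244 ± 290 CPM for ahsg2.

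Regulators of lysosomal genes did not differ in a common direction either. TFEB and its relatives are transcription factors that switch on many lysosomal genes, and mTORC1, recruited by Rag GTPases, holds them back. Of 15 measured members of this list 6 had a positive log2 fold change, with a median of -0.04 (-0.02 without KO library 1 and 0.23 with it as the only KO library). DESeq2 and edgeR without KO library 1 each called 1 member higher, where they called 6.34% and 11.2% of genes higher. The gene tfeb was at 18.2 ± 11.8 CPM in KO and 17.2 ± 6.01 CPM in MYCN-alone tumours (SD, n = 3), tfe3a at 40.9 ± 11.2 and 45.6 ± 7.39 CPM and tfe3b at 24.8 ± 11.7 and 29.1 ± 3.92 CPM, all named after their values were seen. The Rag GTPase gene rragca was at 37.7 ± 6.27 and 21.3 ± 2.98 CPM (log2 fold change 0.82 with adjusted p = 0.197 in edgeR) and did not overlap between genotypes. The gene mitfb, of a TFEB relative, was read at 23.7, 84.3 and 11.5 CPM in KO libraries 1, 2 and 3, and 12.3, 12.98 and 8.71 CPM in MYCN-alone libraries 1, 2 and 3. The further genes of the rule, rragd and the lysosomal calcium channel gene mcoln1a, had log2 fold changes of -0.76 and 0.55 and overlapping groups.

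**Figure D4:**
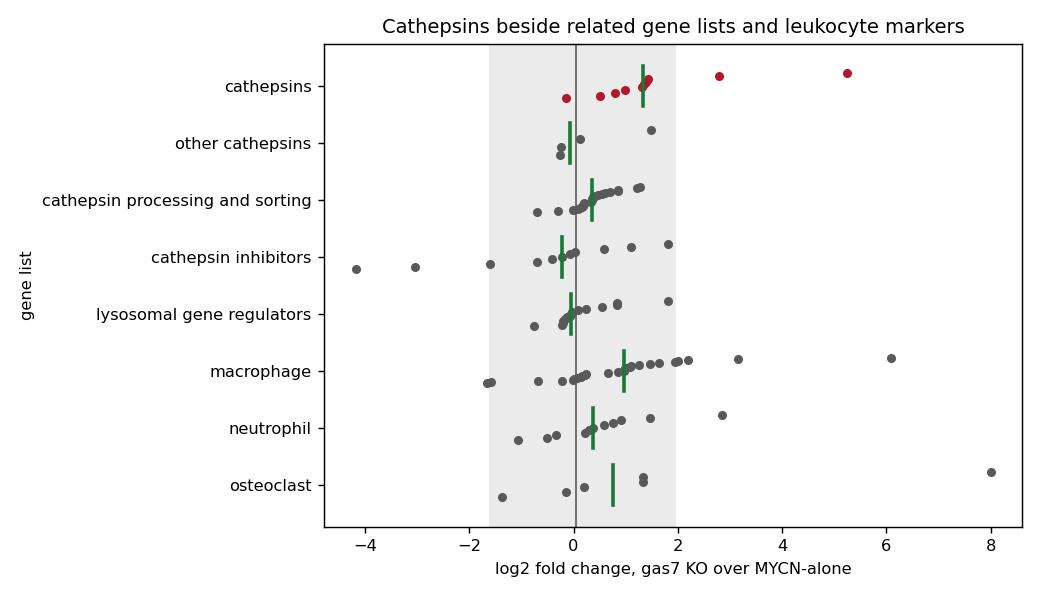
Log2 fold change, KO over MYCN-alone, of every tested gene of the cathepsins (red) and of 7 other lists (grey), with each list's median as a green bar; the shaded band spans the 5th to 95th percentile of all 12821 tested genes, -1.61 to 1.95, and the vertical line is their median. The cathepsin median is 1.33, which the band cannot gauge, since it describes single genes. The genes ctsba and ctssb.1, seen in this contrast before the family was chosen, lie outside the band.

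Leukocytes are rich in cathepsins, so their markers are given beside the family. In a bulk library, fewer cells of a type and less RNA per cell cannot be told apart. Of 27 tested macrophage markers 22 had a positive log2 fold change (median 0.97), and 0 passed in edgeR, while 2 had an unadjusted p under 0.05, both higher, where 11.5% of all tested genes were. DESeq2 called 2 of the markers higher, where it called 6.34% of genes higher. Without KO library 1 the log2 fold change was positive in 12 of the 27, with a median of -0.04. In that fit edgeR called 1 marker higher, where 11.2% of genes were called higher. Over the 28 macrophage genes in the table the summed level was 1464, 1475 and 551 CPM in KO libraries 1, 2 and 3 and 1126, 908 and 729 CPM in MYCN-alone libraries 1, 2 and 3. No tested marker was at 0 throughout, and tyrobp, which did not pass the filter, was listed at 0 in the MYCN-alone libraries. The macrophage receptor gene csf1ra was read at 165, 131 and 52.0 CPM in KO and at 136, 106 and 108 CPM in MYCN-alone libraries. It was thus lowest in KO library 3. The perforin-like gene mpeg1.1 was read at 107, 15.1 and 13.5 CPM in KO and at 27.6, 21.5 and 14.1 CPM in MYCN-alone libraries, highest in KO library 1 like ctsd, ctsk and ctsh. KO library 1 was the highest library for 12 of the 27 macrophage markers and for 6 of the 11 tested neutrophil markers, as it was for 22.4% of all tested genes. Among the neutrophil markers the myeloperoxidase gene mpx was read at 298, 32.5 and 25.2 CPM in KO libraries 1, 2 and 3, and 48.8, 52.2 and 28.1 CPM in MYCN-alone libraries 1, 2 and 3. Over the 12 neutrophil genes in the table the summed level was 1211, 507 and 288 CPM in KO and 426, 609 and 367 CPM in MYCN-alone libraries 1, 2 and 3, and 8 of the 11 tested had a positive log2 fold change (median 0.37). Without KO library 1 the log2 fold change was positive in 1 of the 11 (median -0.33), and with it as the only KO library in 9 (median 1.26). The part of leukocytes in the cathepsin levels of KO library 1 or of any other library was not tested.

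The leukocyte genes that the rule for named genes gives did not share 1 course. The cytokine gene il1b was at 13.4 ± 2.2 CPM in KO and 1.5 ± 1.09 CPM in MYCN-alone tumours (SD, n = 3), and all KO libraries lay above all MYCN-alone libraries (log2 fold change 3.15 with adjusted p = 0.174 in edgeR). The granulin gene grn2 stood at 5.09, 119 and 0.326 CPM in KO libraries 1, 2 and 3 against 0.711 CPM at most in MYCN-alone libraries. The cytokine gene tnfa was at 1.82 ± 1.28 and 0.389 ± 0.288 CPM, and ncf1, which encodes a subunit of the phagocyte oxidase, at 43.1 ± 23.0 and 20.4 ± 5.69 CPM in KO and MYCN-alone tumours. The collagenase gene mmp13a was read at 197, 9.45 and 2.41 CPM in KO libraries 1, 2 and 3, against 5.41 to 16.5 CPM in the MYCN-alone libraries. The lysozyme gene lyz went the other way, at 10.3, 80.4 and 62.7 CPM in KO and 102 to 112 CPM in MYCN-alone libraries, and abcb9 was at 35.9 ± 10.2 and 51.2 ± 8.76 CPM.

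Egg and ovary genes were highest in KO libraries 2 and 3, as ctssb.1 was. Both of these libraries lay above the other 4 in 19 of 22 tested ovary and oocyte genes, and in 22.3% of all tested genes. The zona pellucida gene zp2.1, of the egg coat, stood at 2.08, 528 and 677 CPM in KO libraries 1, 2 and 3 against 0.12 CPM at most in MYCN-alone libraries. The oocyte growth factor gene gdf9 was read at 0.208, 16.4 and 27.4 CPM in KO libraries against 0.421 CPM at most in MYCN-alone libraries. Over the list 20 genes had a positive log2 fold change, with a median of 6.86, and without KO libraries 2 and 3 it was 11 of 21, with a median of 0.40. DESeq2 called 15 of the 22 higher, where it called 6.34% of genes higher. Without KO library 1 edgeR called 21 of 26 higher, where 11.2% of genes were called higher. KO libraries 2 and 3 were set apart by these same transcripts, and genes such as gdf9 passed the filter only through them. The counts over this list therefore describe the libraries and carry no test. In KO library 1 zp2.1 and gdf9 were low, at 2.08 and 0.208 CPM, though zp2.1 was above all its MYCN-alone libraries. There ctssb.1 stood at 170 CPM against at most 22.1 CPM in the MYCN-alone libraries, and ctsba at 616 CPM against at most 114 CPM. Whether ovarian transcripts have a part in the level of either gene was not tested. Other tissue lists were mostly lower in KO, with a positive log2 fold change in 1 of 17 intestine genes (median -3.34). It was positive in 2 of 17 kidney genes (median -1.32, and -0.69 without KO libraries 2 and 3). In the exocrine pancreas list it was positive in 1 of 17 genes (median -2.80, and -4.07 without KO libraries 2 and 3). Of 21 sympathetic genes 7 were positive (median -0.31, and -0.59 without KO library 1).

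Genes with the course nearest to that of ctsba were found by the same root mean square difference over the 6 libraries, among all tested genes other than placeholder symbols. The nearest 5 were creld2 (0.407), manf (0.435), uchl1 (0.466), dnajb1b (0.475) and tspan36 (0.48). The genes creld2 and manf encode proteins of the endoplasmic reticulum induced by its stress, and dnajb1b a heat shock co-chaperone. The gene creld2 was read at 26.4, 22.9 and 43.2 CPM in KO libraries 1, 2 and 3, and 5.89, 4.71 and 7.44 CPM in MYCN-alone libraries 1, 2 and 3. The gene manf had 54.7, 38.4 and 79.3 CPM in KO and 5.53, 9.07 and 8.14 CPM in MYCN-alone libraries. The neuronal ubiquitin hydrolase gene uchl1 was at 324 ± 53.6 CPM in KO and 84.8 ± 28.9 CPM in MYCN-alone tumours, dnajb1b at 49.8 ± 24.6 and 7.25 ± 0.485 CPM, and the tetraspanin gene tspan36 at 99.2 ± 17.5 and 22.7 ± 6.72 CPM (SD, n = 3 each).

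The genes nearest in course to ctssb.1 were slc2a15b (0.417), bmb (0.673), sybu (0.764), her7 (0.773) and tecrl2b (0.807), at larger distances than those around ctsba apart from the first. The sugar transporter family gene slc2a15b was read at 4.83, 29.9 and 39.5 CPM in KO libraries 1, 2 and 3, and 0.781, 0.622 and 0.462 CPM in MYCN-alone libraries 1, 2 and 3. The gene bmb, known in zebrafish for its role in nuclear membrane fusion in the early embryo, had 22.9, 169 and 209 CPM in KO and 1.98 to 4 CPM in MYCN-alone libraries. The gene sybu, which encodes a microtubule-linked protein that acts in the egg to place dorsal determinants in zebrafish, had 32.0, 143 and 167 CPM in KO and 2.46 to 6.31 CPM in MYCN-alone libraries. The genes her7 and tecrl2b had 0.571, 1.46 and 4.53 CPM and 0.779, 11.1 and 14.4 CPM in KO libraries 1, 2 and 3, and both were listed at 0 in all MYCN-alone libraries. Their log2 levels in the MYCN-alone libraries were set by the prior count of 2, so their distances depend on it.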

How the data were processed

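Total RNA of zebrafish tumours with an integrity number of at least 7 was made into stranded paired-end libraries, per the labels' protocols. The authors deposited raw counts, whole numbers for each gene symbol. Per the submitters' processing notes they used Bowtie2 2.2.6, TopHat2 2.0.14 and featureCounts 1.4.6 of Subread with the danRer10 build. How strand and multiply mapped reads were handled is not given in the sources used here, and reads of near copies (ctssb.1 and ctssb.2) may be split.

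Libraries were grouped by the labels. After filterByExpr 12821 of 14781 symbols were tested with edgeR's quasi-likelihood F test, TMM scaling, genotype as the only term and Benjamini-Hochberg adjustment over all genes. The fitted biological coefficient of variation came to 52.5%. Standard errors were derived from fold changes and F statistics. Levels are CPM with TMM-scaled totals, and a prior count of 2 was used for log2 CPM. Replicates differed beyond sampling noise, with a chi-square of 67.8 or more per degree of freedom. The fit was tested on simulated data.

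The members and lists were chosen with earlier results of these data known. Named genes are the members, gas7a, other cathepsin symbols, up to 4 genes with the smallest p of each list, some defining markers and the 5 genes nearest in course to ctsba and ctssb.1. Of the intestine, kidney and exocrine pancreas lists only counts and medians are given, and of the sympathetic list also the levels of th, dbh and phox2a. List symbols missing from the table were matched through RefSeq synonyms (assembly GRCz12tu, names and gene order only). Alternatives were other scalings, filters, DESeq2, limma-voom, a replicate block and fewer libraries. Summing ctssb.1 and ctssb.2 was added after seeing the data. Tools were R 4.3.3, edgeR 4.0.16, limma 3.58.1, DESeq2 1.42.0 and Python 3.11.15 with matplotlib 3.10.9.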

Additional observations from a re-analysis of the deposited data

How the results depend on the processing

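The number of genes called was 0 in edgeR over all 6 libraries, with DESeq2 size factors, with upper-quartile factors and with either other low-count filter (2347 to 2594 genes at an unadjusted p under 0.05). DESeq2 called 1323 genes and limma-voom 1. Leaving out 1 library gave 0 to 1923 called genes, the highest number without KO library 1 and 4 without MYCN-alone library 2. With KO libraries 2 and 3 left out together there were 9, none of them a cathepsin. The replicate number as a block gave 8, none of them a cathepsin. Same-numbered libraries deviated together with correlations of -0.09, -0.15 and 0.19, so the numbers were not taken to pair the samples.

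The median log2 fold change of the 10 cathepsins was 2.09 without KO libraries 2 and 3, and leaving out 1 library in turn gave 0.59 (without KO library 1) to 1.64. Of 140 values of single members under 14 alternatives, 5 changed sign. These were ctsf without KO library 2, 3 or both (0.63), and ctsh and ctsk without KO library 1. With 1 library left out in turn, log2 fold changes ran from -0.76 to 0.095 for ctsf, from -0.35 to 0.82 for ctsh and from -0.0091 to 1.82 for ctsk. Of the other cathepsins, ctsbb ran from -0.58 to 0.23, ctssa from -0.72 to 0.23 and ctsl.1 from -2.34 to 0.67. With KO libraries 2 and 3 left out together, these genes were at -2.60, -2.84 and 1.53. The gene ctsl.1 was also at -0.022 with upper-quartile factors, -1.17 in limma-voom and -0.71 with the replicate block. Apart from the library left out, the cause was not tested. Upper-quartile factors moved the median of all genes to -0.14, and 9 cathepsins still had a positive log2 fold change.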

Other observations

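Genes of the acid phosphatase and proton pump that accompany cathepsin K in mammalian osteoclasts did not follow ctsk. The tartrate-resistant acid phosphatase gene acp5a was read at 11.5, 681 and 912 CPM in KO libraries 1, 2 and 3 and at 2.1, 2.67 and 1.5 CPM in MYCN-alone libraries 1, 2 and 3. Like ctssb.1 it was highest in KO libraries 2 and 3, but in KO library 1 it was far lower than ctssb.1, which had 170 CPM there. The gene ctsk was highest in KO library 1 at 110 CPM. The second copy acp5b was at 1.59 ± 1.19 CPM in KO and 4.11 ± 1.15 CPM in MYCN-alone tumours (SD, n = 3), and its groups did not overlap. The pump subunit gene tcirg1b was at 144 ± 28.3 CPM in KO and 57.1 ± 8.81 CPM in MYCN-alone tumours, a log2 fold change of 1.34 with a SE of 0.25 (edgeR adjusted p = 0.174), and all KO libraries above all MYCN-alone libraries. The lysosomal chloride transporter gene clcn7 was at 82.1 ± 5.31 and 71.8 ± 6.83 CPM. Of the 6 tested osteoclast markers 4 had a positive log2 fold change, and none passed in edgeR over all 6 libraries. In that fit 2 higher ones and 0 lower ones had an unadjusted p under 0.05, where 11.5% of all tested genes were higher and 7.57% lower. DESeq2 and edgeR without KO library 1 each called 2 markers higher, where they called 6.34% and 11.2% of genes higher.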
